A study of Mus musculus with 5 samples.

Results

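Respiratory complexes III, IV and V carry electrons from ubiquinol to oxygen and turn the resulting proton gradient into ATP in the inner mitochondrial membrane. Complex III passes electrons to cytochrome c, complex IV (cytochrome c oxidase) passes them on to oxygen, and complex V (ATP synthase) lets protons flow back through a rotating ring to drive ATP synthesis. Most subunits are encoded in the nucleus, while a core of each complex is made from mitochondrial DNA; the mitochondrially encoded genes were not analysed here. In blood, platelets and leukocytes keep mitochondria, whereas red cells lose theirs as they mature from reticulocytes.

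The nuclear subunit genes described here were chosen by symbol: those starting with Uqcr (complex III), with Cox followed by a digit from 4 to 8 (complex IV) or with Atp5 (complex V), on probe sets annotated with 1 gene symbol. They made up 82 of 45101 probe sets and 42 of 18194 named genes, with 8 genes in complex III, 17 in complex IV and 17 in complex V. Each gene was represented by its probe set with the highest mean over the arrays. Cox7a2l, which encodes a factor that joins complexes III and IV into supercomplexes, came in through its symbol although it is not a classical complex IV subunit.

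Whole blood of adult female first-generation mice was profiled on Affymetrix arrays, 1 array per sample, with no treatment named beyond the anaesthesia before collection. AKRxFVB F1 mice (AKR/J crossed with FVB/NJ) gave 2 samples and DBAxFVB F1 mice (DBA/2J crossed with FVB/NJ) gave 3, so every sample shares the FVB/NJ genome. The question was which genes differ in basal blood expression between the genotypes. No label says whether each sample is a different animal, so limma p-values here reflect only the variation among the arrays of a cross, possibly technical.

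Values are on a log2 scale, and differences are DBAxFVB F1 minus AKRxFVB F1, so that -1 means a halved signal. Errors after a difference are limma standard errors, and levels are given with their SD. Blood markers were bright, such as the erythroid heme enzyme gene Alas2 at 13.45 to 13.59 and the platelet chemokine gene Ppbp at 9.56 to 11.39 over the 5 arrays, although the probe set of the globin gene Hba-a1 read 2.34 to 2.68. In whole blood, fewer cells of a type and less RNA per cell cannot be told apart. DBAxFVB F1 array 3 stood apart: the median of its 18 hybridisation control probe sets, which read spiked-in transcripts, was 7.99, against 10.01 to 10.12 on the other arrays. The 3-prime minus 5-prime difference of Gapdh, a sign of RNA quality, was 1.04 and 0.73 in AKRxFVB F1 and 0.62, 0.58 and 1.33 in DBAxFVB F1. That of Actb was 1.22 and 1.03, then 0.82, 0.68 and 1.32. Array 3 was highest on both. With array 3 left out, this measure was higher in AKRxFVB F1 on both genes, so the crosses still differed in it. Its part in the differences was not tested. The medians of the members and of each complex, and many gene differences, are given with and without DBAxFVB F1 array 3. Where no array is said to be left out, differences and counts use all 5 arrays.

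The promoters of 4 genes are shown. Atp5g3, Atp5g2 and Atp5c1 are the complex V genes with the largest negative differences. Cox8b has the largest positive difference among the probe sets that stood for a gene. They were chosen with their values and motifs known, so the motifs they hold say nothing of the other low genes. Cox6b1, with a larger negative difference than Atp5g2 and Atp5c1, and Atp5g1 have windows without an NRF1 motif, and Uqcrb is not shown. The sequences are RefSeq windows of assembly GRCm38.p6, 280 bases from 250 before the annotated start to 30 after it, written 5′ to 3′ on the strand of the gene. Capitals mark the palindromic motif of the transcription factor NRF1, a known activator of respiratory genes, or the letters TATAAA.
Atp5g3 (chr2:73911297-73911576, minus strand): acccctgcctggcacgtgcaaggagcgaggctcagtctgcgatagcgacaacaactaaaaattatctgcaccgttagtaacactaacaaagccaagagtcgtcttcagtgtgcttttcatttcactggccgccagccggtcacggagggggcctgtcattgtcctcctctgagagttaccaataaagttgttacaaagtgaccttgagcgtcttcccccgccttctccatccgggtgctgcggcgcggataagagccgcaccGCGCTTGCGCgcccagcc
Atp5g2 (chr15:102671018-102671297, minus strand): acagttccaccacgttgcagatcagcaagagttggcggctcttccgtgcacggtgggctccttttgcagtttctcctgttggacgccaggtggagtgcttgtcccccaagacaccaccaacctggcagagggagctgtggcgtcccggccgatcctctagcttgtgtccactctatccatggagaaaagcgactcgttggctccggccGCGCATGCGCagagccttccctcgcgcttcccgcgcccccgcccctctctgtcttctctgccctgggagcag
Atp5c1 (chr2:10080403-10080682, minus strand): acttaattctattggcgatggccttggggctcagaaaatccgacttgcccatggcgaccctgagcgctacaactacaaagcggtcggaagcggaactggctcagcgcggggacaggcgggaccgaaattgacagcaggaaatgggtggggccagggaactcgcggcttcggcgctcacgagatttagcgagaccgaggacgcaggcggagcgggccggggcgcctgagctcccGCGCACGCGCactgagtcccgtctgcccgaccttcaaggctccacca
Cox8b (chr7:140900417-140900696, minus strand): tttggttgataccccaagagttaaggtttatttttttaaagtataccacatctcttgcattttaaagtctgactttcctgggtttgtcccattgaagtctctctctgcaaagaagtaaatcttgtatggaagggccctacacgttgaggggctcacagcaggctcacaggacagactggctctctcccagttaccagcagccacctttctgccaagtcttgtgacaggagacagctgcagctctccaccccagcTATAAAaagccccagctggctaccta
Each of the 3 ATP synthase windows shown held 1 NRF1 motif and no TATAAA, and the Cox8b promoter held 1 TATAAA and no NRF1 motif. The TATAAA of Cox8b lies just after the annotated start, not upstream of it, and Atp5c1 is shown by 1 of its 2 windows, the other of which holds no NRF1 motif.

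The motifs were searched on both strands in the full windows of 300 bases, which were available for 32 of the 42 genes. The NRF1 motif was present in 8 of the 32 genes (25%), against 5.19% of 27025 genes with a window. By complex it was present in 1 of 5 genes in complex III, 1 of 12 in complex IV and 6 of 15 in complex V. The ETS motif read by GABPA, another activator of respiratory genes, was searched as CCGGAAG and was present in 11 of the 32 genes (34.4%), against 9.93% of all genes. The YY1 core motif AAGATGG was present in 4 of 32 (12.5%) against 7.28%, and TATAAA in 4 of 32 (12.5%) against 15.7%. The GABPA and YY1 motifs can share the letters AAG, and a match describes the sequence only.

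Of the 42 genes, 39 had a mean at or above the filter on low values and were tested. No member probe set passed the threshold of a limma adjusted p below 0.05, where 0% of all probe sets passed, and the smallest adjusted p among the 71 tested member probe sets was 0.262. The differences of the tested genes were mostly below 0: 32 of 39 were lower in DBAxFVB F1 and 7 were higher, where 41.7% of all 12421 tested genes were lower. Their median difference was -0.41, against 0.05 over all genes tested. The share of all genes that were lower rose with mean level, and members were brighter, with a median level of 6.74 against 3.32. At levels of 6 to 8, 74.4% of all genes and 76.9% of members were lower, and at 8 to 15, 90.5% and 100%. At 4 to 6 the shares were 47.4% and 80%, and they were 36.7% and 66.7% at 2.5 to 4. At an unadjusted limma p below 0.05, 6 of the 39 genes (15.4%) were lower, against a background of 6.4%, and 1 was higher, against 3.61%. Every DBAxFVB F1 array lay below every AKRxFVB F1 array in 8 of the 39 genes (20.5%), against 11.9% of all genes, and above in 3 (7.69%), against 17%.

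Without DBAxFVB F1 array 3 the median difference of the 39 genes was -0.10, with 28 of them lower (71.8%, against 42.2% of all genes). These shares were not matched for level. In that fit 5 genes were lower at an unadjusted limma p below 0.05, and the share of all genes there was not counted.

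**Figure D1:**
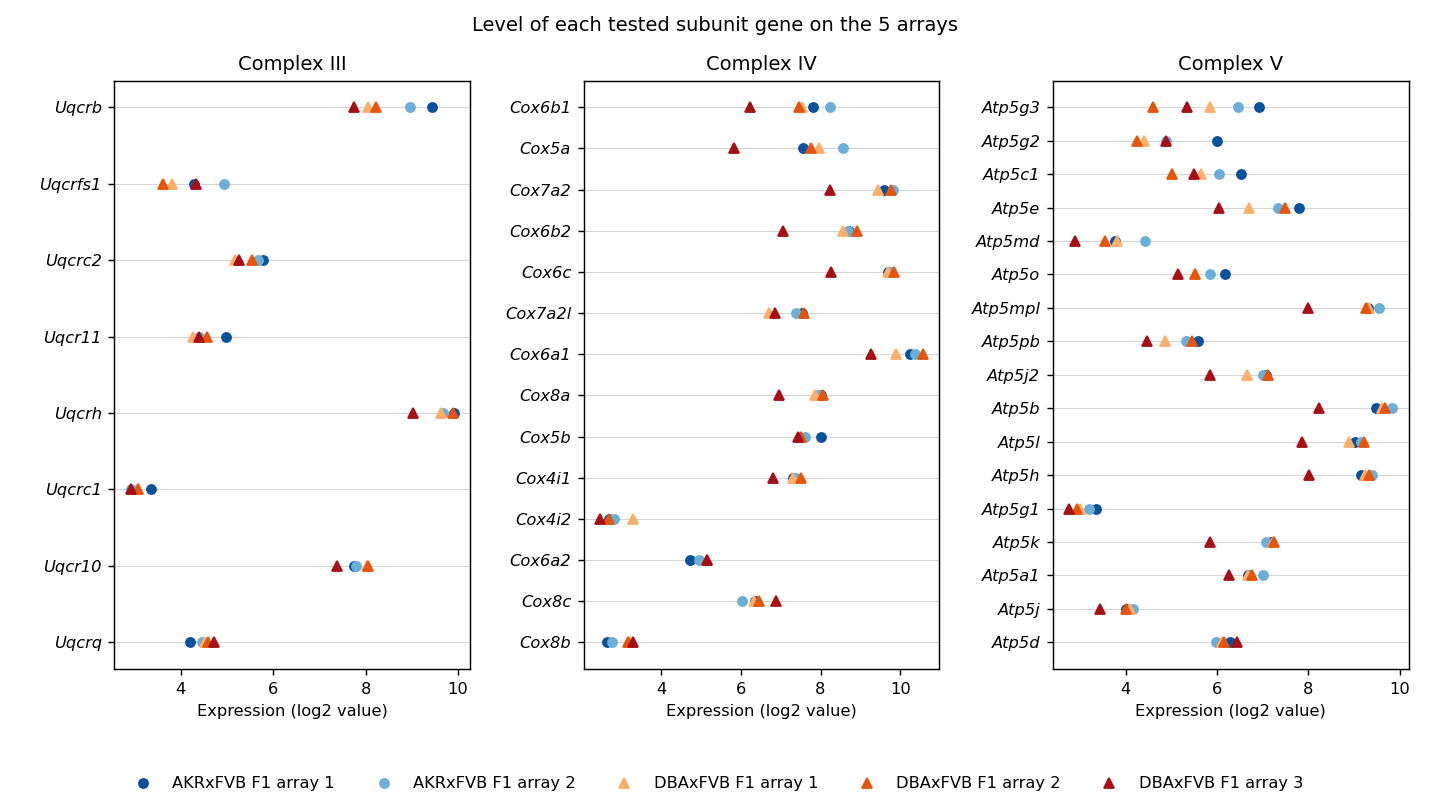
Log2 expression (x axis) of the 39 tested subunit genes (rows) by complex, with circles for the 2 AKRxFVB F1 arrays and triangles for the 3 DBAxFVB F1 arrays. Genes are ordered by their difference, lowest at the top, and DBAxFVB F1 array 3 is the lowest of the 5 arrays in 26 of them.

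Complex III had a median difference of -0.27 over its 8 tested genes, of which 6 were lower. Leaving out DBAxFVB F1 array 3 gave -0.17, again with 6 of 8 lower, and leaving out AKRxFVB F1 array 1 gave -0.072. Uqcrb, a small subunit at the ubiquinone-binding side of the complex, had the largest difference in it, 9.20 ± 0.35 (SD, n = 2) against 8.004 ± 0.24 (SD, n = 3). It read 9.44 and 8.95 in AKRxFVB F1 and 8.05, 8.22 and 7.74 in DBAxFVB F1. Both AKRxFVB F1 arrays were thus above all 3 of the others. The difference was -1.19 ± 0.36 (limma adjusted p = 0.321), and -1.06 without DBAxFVB F1 array 3. It was -0.58 after quantile normalization and -0.77 after cyclic loess normalization. A second, dimmer Uqcrb probe set also had groups that did not overlap, with a difference of -0.40 ± 0.21.

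Uqcrfs1, the Rieske iron-sulfur protein that takes the electron from ubiquinol, read 4.28 and 4.94 in AKRxFVB F1 and 3.80, 3.62 and 4.32 in DBAxFVB F1. Here DBAxFVB F1 array 3 was the highest of its cross and the groups overlapped. The difference was -0.69 ± 0.29 (limma adjusted p = 0.479), or -0.89 without that array. Leaving out AKRxFVB F1 array 2 gave the smallest size, -0.36.

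The core proteins Uqcrc1 and Uqcrc2 form the large matrix-facing part of complex III. Uqcrc2 read 5.77 and 5.67 in AKRxFVB F1 and 5.18, 5.54 and 5.27 in DBAxFVB F1, with no overlap and a difference of -0.39 ± 0.25. Uqcrc1 had overlapping groups and a difference of -0.11 ± 0.18.

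Among the small subunits, the hinge protein gene Uqcrh differed by -0.27 ± 0.40 and by -0.02 without DBAxFVB F1 array 3. Uqcr11 read 4.98 and 4.41 in AKRxFVB F1 and 4.28, 4.56 and 4.39 in DBAxFVB F1, a difference of -0.28 ± 0.25. Uqcr10, which had the highest limma p of the complex, read 7.74 and 7.79 against 8.03, 8.04 and 7.38, a difference of 0.05 ± 0.36. Both had groups that overlapped. Uqcrq had the larger of the 2 positive differences in complex III. It read 4.20 and 4.46 in AKRxFVB F1 and 4.53, 4.60 and 4.72 in DBAxFVB F1, without overlap, a difference of 0.29 ± 0.21 (limma adjusted p = 0.673). All 4 of its tested probe sets were higher in DBAxFVB F1, with differences from 0.14 to 0.52. Complex III thus held Uqcrb, whose difference was exceeded in size only by that of Atp5g3 among the 39, beside Uqcrq with a positive difference on each tested probe set.

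Complex IV had a median difference of -0.37 over 14 tested genes, 10 of them lower. Leaving out DBAxFVB F1 array 3 moved that median to 0.01, with 7 of 14 genes lower. No complex IV gene was lower at an unadjusted limma p below 0.05 on the probe set that stood for it.

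Cox5a, a matrix-side subunit next to the catalytic core, had the largest drop on that array. It read 7.56 and 8.55 in AKRxFVB F1 and 7.97, 7.77 and 5.84 in DBAxFVB F1. The first 2 DBAxFVB F1 arrays lay between the AKRxFVB F1 arrays and array 3 lay below all others. The difference was -0.87 ± 0.67, and -0.19 without array 3. Its neighbour Cox5b, which binds zinc on the matrix side, read 8.02 and 7.62 against 7.49, 7.51 and 7.43, so that its groups did not overlap and array 3 was close to the other 2 of its cross. Its difference was -0.34 ± 0.32.

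Cox6b1, which joins the monomers of the enzyme on the intermembrane side, had the largest negative difference in complex IV. It read 7.82 and 8.24 in AKRxFVB F1 and 7.53, 7.47 and 6.23 in DBAxFVB F1, with no overlap. The difference was -0.95 ± 0.47 (limma adjusted p = 0.532), and -0.53 without DBAxFVB F1 array 3. Cox6c had values of 9.70 and 9.77 in AKRxFVB F1 and of 9.70, 9.85 and 8.25 in DBAxFVB F1. On 4 arrays Cox6c lay within a narrow range, and its difference of -0.47 ± 0.53 was 0.04 without array 3.

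Several complex IV subunits exist as isoforms with their own tissue ranges. Of the liver-type and ubiquitous forms, Cox6a1 read 10.26 and 10.36 in AKRxFVB F1 and 9.91, 10.57 and 9.28 in DBAxFVB F1. Cox7a2 read 9.59 and 9.83 against 9.45, 9.76 and 8.23, and Cox8a read 8.02 and 7.94 against 7.87, 8.06 and 6.97. Cox4i1 read 7.31 and 7.38 against 7.30, 7.52 and 6.81. In each of them array 3 was the lowest of the 5. Cox6a1, Cox7a2, Cox8a and Cox4i1 had differences of -0.39 ± 0.45, -0.56 ± 0.51, -0.34 ± 0.41 and -0.13 ± 0.34, and of -0.07, -0.10, -0.01 and 0.07 without DBAxFVB F1 array 3. Their groups overlapped. The heart and muscle forms Cox6a2 and Cox8b were higher on each DBAxFVB F1 array than on either AKRxFVB F1 array.

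Cox8b read 2.63 and 2.76 in AKRxFVB F1 and 3.21, 3.16 and 3.30 in DBAxFVB F1, that is 2.69 ± 0.10 (SD, n = 2) against 3.22 ± 0.07 (SD, n = 3). Among the probe sets that stood for the 39 genes, the difference of 0.53 ± 0.15 was the largest positive one (limma adjusted p = 0.267). It was 0.46 to 0.60 with 1 array left out. The level lay near the median of all probe sets, 2.49 to 2.54 on the 5 arrays. Cox6a2 read 4.72 and 4.95 against 5.15, 5.15 and 5.14, a difference of 0.31 ± 0.23. The muscle form Cox7a1 had a mean below the filter and was not tested, and it read 1.98 and 2.30 against 2.37, 2.38 and 2.39.

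Heart muscle markers were examined beside these isoforms because blood was drawn by cardiac puncture. Of 9 tested heart markers, 6 were higher in DBAxFVB F1, as were 7245 of all 12421 tested genes. In 3 of the 9 (33.3%), Actc1, Myl2 and Pln, the groups did not overlap in that direction, against 17% of all genes. Mb, Myh7 and Nppb were higher with overlap, while Ckm, Myl3 and Tnnt2 were lower, at -0.14, -0.07 and -0.15. The logarithm of the summed signal of the 9 markers was 6.90 and 6.92 in AKRxFVB F1 and 7.27, 7.01 and 7.16 in DBAxFVB F1. The cardiac actin gene Actc1 read 2.70 and 3.19 against 4.13, 3.28 and 3.68, and the ventricular myosin light chain gene Myl2 read 2.41 and 2.36 against 3.93, 2.83 and 2.74. Other heart markers (Ckmt2, Myh6, Myl7, Nppa and Tnni3) had means below the filter, and all of these but Myl7 also read higher on each DBAxFVB F1 array than on either AKRxFVB F1 array. The part of heart tissue in the difference of Cox8b and Cox6a2 was not tested.

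The testis forms Cox6b2, Cox7b2 and Cox8c and the lung form Cox4i2 did not share a pattern. Cox6b2 read 8.71 and 8.70 in AKRxFVB F1 and 8.55, 8.91 and 7.06 in DBAxFVB F1, so that without array 3 its difference was 0.02. Cox8c read 6.34 and 6.03 against 6.32, 6.46 and 6.88, a difference of 0.36 ± 0.31. A second, slightly dimmer Cox8c probe set read 5.70 and 5.80 against 6.46, 5.89 and 6.83, without overlap, a difference of 0.64 ± 0.34. Cox4i2 read 2.68 and 2.80 against 3.28, 2.68 and 2.46, a difference of 0.07 ± 0.24 with the highest limma p in complex IV. Cox7b2, at 1.99 and 1.90 against 1.95, 1.78 and 1.83, and the ubiquitous Cox7c had means below the filter on all of their probe sets, with Cox7c at 1.72 to 1.94 on the arrays, and were not tested.

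The supercomplex factor gene Cox7a2l gave probe sets of opposite sign. Its brightest probe set read 7.54 and 7.40 in AKRxFVB F1 and 6.71, 7.57 and 6.86 in DBAxFVB F1, with overlap and a difference of -0.42 ± 0.37. A second one read 6.46 and 6.19 in AKRxFVB F1 and 6.71, 6.69 and 7.39 in DBAxFVB F1, without overlap, a difference of 0.60 ± 0.34. Another one differed by -0.31 ± 0.31.

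Complex V had a median difference of -0.51, and 16 of its 17 tested genes were lower. Leaving out DBAxFVB F1 array 3 moved that median to -0.17, with 15 of 17 lower. Complex V also held 4 of the 6 genes that were lower at an unadjusted limma p below 0.05, namely Atp5g1, Atp5g2, Atp5g3 and Atp5c1. That is 23.5% of its tested genes, against 6.4% of all genes. Complex III held the other 2, Uqcrb and Uqcrfs1, which is 25% of its 8 tested genes.

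The 3 Atp5g genes encode the same subunit c, whose copies form the rotating ring in the membrane. Atp5g3 had the largest difference of all 39 genes. It read 6.92 and 6.46 in AKRxFVB F1 and 5.84, 4.59 and 5.35 in DBAxFVB F1, that is 6.69 ± 0.32 (SD, n = 2) against 5.26 ± 0.63 (SD, n = 3). The groups did not overlap, and array 2, not array 3, was the lowest. The difference was -1.43 ± 0.40 (limma adjusted p = 0.280), -1.47 without array 3, and -1.09 after quantile and -1.28 after cyclic loess normalization.

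Atp5g2 read 5.99 and 4.88 in AKRxFVB F1 and 4.39, 4.25 and 4.88 in DBAxFVB F1. The 2 AKRxFVB F1 arrays differed by more than the groups did, and AKRxFVB F1 array 2 and DBAxFVB F1 array 3 met at 4.88. Its difference of -0.93 ± 0.37 was -0.37 without AKRxFVB F1 array 1. Atp5g1 read 3.34 and 3.20 against 3.001, 2.93 and 2.76, with no overlap and a difference of -0.37 ± 0.15 (limma adjusted p = 0.461). The direction of the ring genes was thus the same for each of the 3, and it was kept under each normalization and with each array left out.

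Atp5c1 encodes the gamma subunit, the shaft that links the ring to the catalytic head. It read 6.53 and 6.04 in AKRxFVB F1 and 5.65, 5.02 and 5.48 in DBAxFVB F1, without overlap. The difference was -0.90 ± 0.31 (limma adjusted p = 0.396), or -0.95 without DBAxFVB F1 array 3. A dimmer second Atp5c1 probe set differed by -0.04 ± 0.16. The other shaft subunits did not give 1 picture: Atp5e, the epsilon subunit, differed by -0.82 ± 0.46 with overlapping groups.

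Atp5d, the delta subunit of the shaft, was the only tested complex V gene with a positive difference, and it had the highest limma p of the complex. It read 6.29 and 5.98 in AKRxFVB F1 and 6.10, 6.14 and 6.43 in DBAxFVB F1, with overlap and a difference of 0.09 ± 0.29, or -0.01 without array 3. Its second probe set read 4.44 and 3.94 in AKRxFVB F1 and 3.21, 3.12 and 3.68 in DBAxFVB F1, a difference of -0.85 ± 0.25 without overlap (limma adjusted p = 0.298). The 2 Atp5d probe sets thus disagree, and the brighter one stood for the gene in the counts.

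The catalytic head is built from alpha subunits (Atp5a1) and beta subunits (Atp5b), which hold the sites of ATP synthesis. Atp5b read 9.48 and 9.84 in AKRxFVB F1 and 9.60, 9.67 and 8.24 in DBAxFVB F1. The first 2 DBAxFVB F1 arrays lay between the AKRxFVB F1 arrays. The difference was -0.49 ± 0.51, and -0.03 without array 3. Atp5a1 differed by -0.27 ± 0.32, and by -0.11 without that array.

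Atp5o, the OSCP subunit that ties the head to the outer stalk, read 6.17 and 5.84 in AKRxFVB F1 and 5.51, 5.51 and 5.14 in DBAxFVB F1. Its groups did not overlap, and the difference of -0.62 ± 0.27 (limma adjusted p = 0.497) was -0.50 without array 3. The other stalk genes Atp5pb, Atp5h and Atp5j differed by -0.52, -0.41 and -0.23, and by -0.29, 0.01 and -0.03 without that array. The small membrane subunit genes Atp5j2, Atp5k, Atp5l, Atp5md and Atp5mpl differed by -0.51, -0.36, -0.43, -0.67 and -0.55, and without that array by -0.17, 0.11, -0.04, -0.41 and -0.12. Their groups overlapped.

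**Figure D2:**
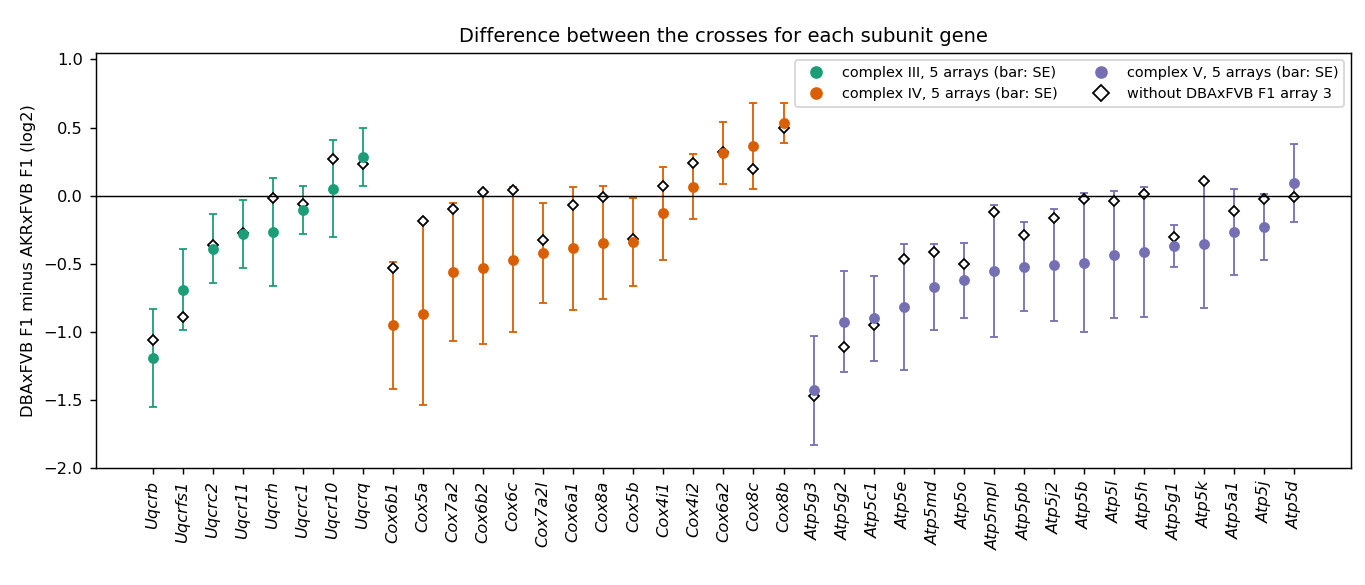
Difference between the crosses (log2, DBAxFVB F1 minus AKRxFVB F1) for the 39 tested genes by complex. Filled points use all 5 arrays with limma's standard error as bars, and open diamonds leave out DBAxFVB F1 array 3; Atp5g3, Uqcrb and Atp5c1 keep differences of -1.47, -1.06 and -0.95 there, while the complex IV median is 0.01.

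The drop on DBAxFVB F1 array 3 was spread unevenly over the members. Array 3 was the lowest of the 5 arrays in 26 of 39 genes, by complex in 3 of 8, 10 of 14 and 13 of 17. In complex III these were Uqcr10, Uqcrb and Uqcrh, its only genes with a mean level of 6 or more. Against the mean of the other 2 DBAxFVB F1 arrays, Cox5a was at -2.03, Cox6b2 at -1.67 and Cox6c at -1.53. Among the 23 genes with a mean level of 6 or more the median of this difference was -1.03 and array 3 was lowest in 20, while among the 16 dimmer genes the median was -0.06 and array 3 was lowest in 6. Across the 39 genes, which share arrays and are not independent, the Pearson correlation between level and this difference was -0.62. Between level and the difference of the crosses without array 3 it was 0.07.

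Bright genes as a whole, members included, had like values. Over all 242 tested genes at a mean level of 8 to 15 the median was -0.48, or -0.06 without array 3, and the 10 members in that range had -0.48 and -0.03. In the range from 6 to 8 the median was -0.39 over all 536 genes and -0.34 over 13 members. In the range from 4 to 6 it was 0.02 over all 2697 genes and -0.57 over 10 members, or 0.04 and -0.43 without array 3. The 10 members in that range include Atp5g2, Atp5g3, Atp5c1, Atp5o, Uqcrc2 and Uqcrfs1. In the range from 2.5 to 4 the median was 0.08 over all 8946 genes and -0.17 over 6 members, or 0.05 and -0.04 without array 3. These medians describe the arrays and were not tested.

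**Figure D3:**
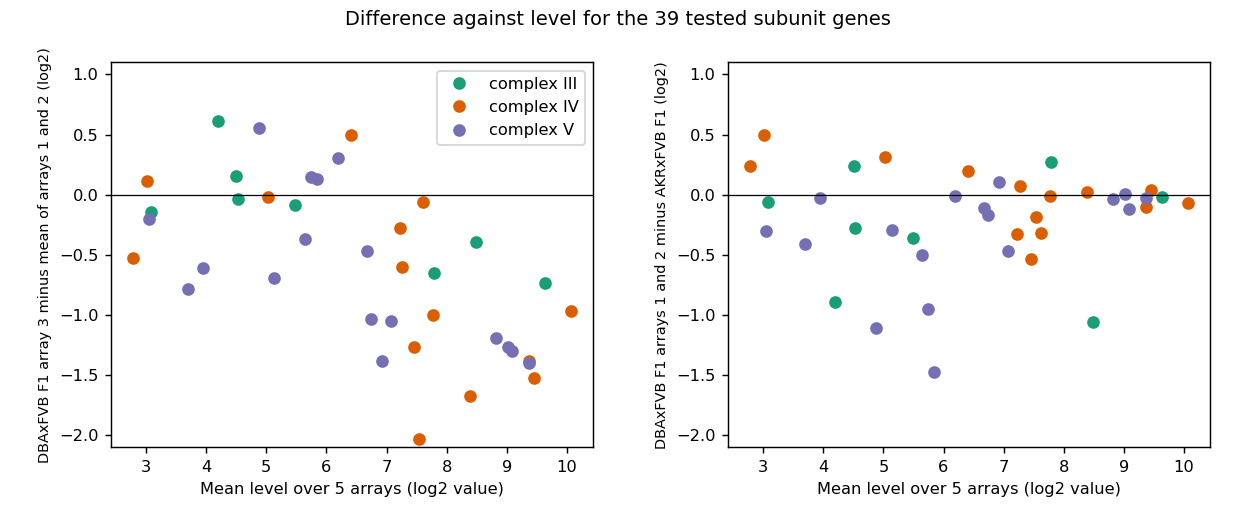
Left, the value on DBAxFVB F1 array 3 minus the mean of arrays 1 and 2 of that cross (log2) against the mean level of each of the 39 tested genes; right, the mean of DBAxFVB F1 arrays 1 and 2 minus the AKRxFVB F1 mean against the same level. Points on the left fall with level (Pearson correlation -0.62), and those on the right do not (0.07).

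The complexes were also set side by side on each array, as the median of their members relative to each gene's mean over the 5 arrays. Complex V stood at 0.27 and 0.27 in AKRxFVB F1 and at 0.01, 0.09 and -0.67 in DBAxFVB F1. Complex IV stood at 0.20 and 0.17, then at 0.09, 0.24 and -0.63, so that its groups overlapped. Complex III stood at 0.28 and 0.02, then at -0.12, 0.05 and -0.18, also with overlap. On DBAxFVB F1 array 3 complex III was thus 0.45 above complex IV and 0.49 above complex V, while on the other 4 arrays complex III lay between 0.26 below and 0.01 above complex V. Complex III was also the dimmest, with a median level of 5.003 over its tested genes, against 7.499 in complex IV and 6.188 in complex V. Across the members the drop on array 3 was larger at higher levels, and the part of level in these gaps was not tested. The difference between complexes has no test, since genes are not replicates. The order of their median differences was not kept: with all arrays it was -0.27, -0.37 and -0.51 for complexes III, IV and V, and without DBAxFVB F1 array 3 it was -0.17, 0.01 and -0.17.

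Platelet markers were low with the members on array 3. All 8 tested platelet markers were lower in DBAxFVB F1, with a list median of -0.53, or 0.05 without array 3, and none had groups that did not overlap. Their median relative to each gene's mean was -0.39 and 0.88 in AKRxFVB F1 and 0.24, 0.48 and -1.30 in DBAxFVB F1. The logarithm of their summed signal was 11.76 and 12.79, then 12.21, 12.39 and 10.53. On AKRxFVB F1 array 1 the platelet median was low while the complexes were not. The part of platelets in the members' values was not tested.

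**Figure D4:**
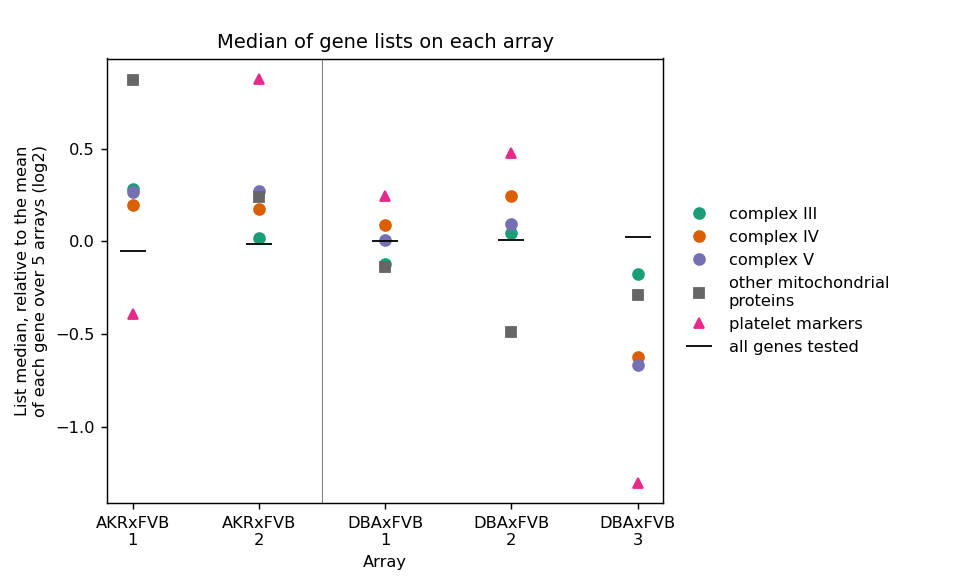
Median of each gene list on the 5 arrays (y axis, log2, relative to each gene's mean over the arrays) for complexes III, IV and V, other mitochondrial proteins, platelet markers and all tested genes. Complexes IV and V are at -0.63 and -0.67 on DBAxFVB F1 array 3, where platelet markers are at -1.30 and all genes at 0.02.

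Other genes of the pathway were read from lists that, like the members, were chosen with earlier results of these data known. Of these genes 0 passed a limma adjusted p below 0.05. In complex III the catalytic subunit cytochrome c1 (Cyc1) differed by 0.13 ± 0.25 and the electron carrier cytochrome c (Cycs) by -0.40 ± 0.34. Of 6 tested complex III assembly genes 2 were lower, with a list median of 0.08. Of 17 tested complex IV assembly genes 7 were lower, with a list median of 0.06. Each direction had 1 gene (5.88%) at an unadjusted limma p below 0.05. Over all tested genes the shares were near that, 6.4% lower and 3.61% higher. Cox20, a chaperone of a mitochondrially encoded subunit, was the lower one at -0.55 ± 0.22, and Tmem177 the higher one at 0.38 ± 0.13. Of 4 tested complex V assembly and inhibitor genes 1 was lower: Atpif1, the inhibitor that stops ATP hydrolysis, at -0.58 ± 0.62, with 9.35 and 9.85 against 9.66, 9.63 and 7.77. The median over all tested genes was 0.05.

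Complex II, which feeds electrons to ubiquinone upstream, had 4 of 6 tested genes lower and a median of -0.14. Its flavoprotein gene Sdha read 4.43 and 4.80 in AKRxFVB F1 and 3.94, 4.08 and 4.04 in DBAxFVB F1, without overlap, a difference of -0.59 ± 0.21 (limma adjusted p = 0.402). Of 9 tested regulators of respiratory genes 4 were lower. Yy1, a zinc finger factor with sites in respiratory promoters, read 5.18 and 5.08 in AKRxFVB F1 and 4.04, 3.86 and 3.24 in DBAxFVB F1. Its groups were far apart, with a difference of -1.42 ± 0.27 (limma adjusted p = 0.160). Nrf1 itself differed by 0.08 ± 0.21 with overlapping groups.

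Abundant mitochondrial proteins outside the respiratory chain were lower throughout, on a list chosen with earlier results of these data known. All 10 tested genes of that list were lower, 6 of them (60%) at an unadjusted limma p below 0.05, against 6.4% of all genes, and the list median was -0.83. Every DBAxFVB F1 array lay below every AKRxFVB F1 array in 8 of the 10 (80%), against 11.9% of all genes. The median without DBAxFVB F1 array 3 was -0.80, and relative to each gene's mean the list stood at 0.87 and 0.24 in AKRxFVB F1 and at -0.14, -0.49 and -0.29 in DBAxFVB F1.

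Tomm20, a receptor of the outer membrane import machinery, read 6.66 and 6.06 against 4.70, 5.09 and 4.97, a difference of -1.44 ± 0.29 (limma adjusted p = 0.173). The citrate synthase gene Cs read 6.85 and 6.22 against 5.35, 5.20 and 5.55, a difference of -1.17 ± 0.30 (limma adjusted p = 0.246). Slc25a5, which exchanges ADP for ATP across the inner membrane, differed by -1.13 ± 0.29. In Tomm20 and Slc25a5, as in Atp5g3 and Atp5c1, DBAxFVB F1 array 3 lay between the other 2 arrays of its cross. In Cs it was the highest of its cross, and in Uqcrb, Atp5b, Cox6c and Cox7a2 it was the lowest of the 5 arrays.

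Markers of leukocytes were set beside those values. B cell markers stood, as a list median, at 0.90 and -0.06 in AKRxFVB F1 and at -0.57, -0.50 and 0.10 in DBAxFVB F1, with 7 of 8 lower. The logarithm of their summed signal was 9.11 and 8.01 against 7.14, 7.07 and 7.84. At an unadjusted limma p below 0.05, 2 of 8 B cell markers (25%), 3 of 9 T cell markers (33.3%) and 2 of 7 monocyte markers (28.6%) were lower, against 6.4% of all genes. T cell markers stood at 0.09 and 0.23, then at 0.18, -0.35 and -0.20, with 7 of 9 lower and summed signals of 8.01 and 8.15 against 7.94, 7.70 and 7.79. Neutrophil markers had 6 of 8 higher, with summed signals of 8.79 and 8.08 against 8.01, 7.91 and 8.69, and monocyte markers 4 of 7 higher, with 9.07 and 8.20 against 7.27, 7.38 and 8.26. Erythroid markers had 4 of 8 higher, with 13.71 and 13.86 against 13.76, 13.90 and 13.63. Skeletal muscle markers had 3 of 5 higher, with 5.68 and 5.20 against 5.41, 5.29 and 5.47. The part of leukocyte numbers in the lower values of Uqcrb, Atp5g3 and Tomm20 was not tested.

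Probe sets of the same gene mostly agreed in sign. Of 21 member genes with more than 1 tested probe set, 16 had the same sign on each of them. The exceptions were Uqcr10, Cox5b, Cox7a2l, Cox8a and Atp5d. For Cox8a the 2 bright probe sets differed by -0.34 and -0.35, and a dim one, which read 2.34 and 2.51 against 2.85, 3.10 and 2.97, by 0.55 ± 0.15. Of the 39 probe sets that stood for a gene, 20 had the plain _at suffix, 11 the suffix _a_at, 4 _s_at and 4 _x_at. In the array maker's naming the last 2 kinds match transcripts of other genes as well. Values of such probe sets, which include those of Cox5b, Cox8c, Atp5c1 and Atp5d, may therefore include related copies.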

How the data were processed

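Whole-blood RNA of 5 samples was measured on Affymetrix mouse arrays, after amplification in 2 cycles and biotin labelling per the labels' protocols. The authors deposited values taken here as log2, since they ran from 1.29 to 14.8 and no label states the base. MAS5 and RMA are named, per the submitters' processing notes; which one gave the values is not given in the sources used here, so the background correction and the compression of low signals are unknown. The number of arrays limits the precision.

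Samples were grouped by cross from their source label. The 64 control probe sets were left out. Probe sets with a mean at or above the median of all others, 2.51, were tested (22519, standing for 12421 named genes). Limma 3.58.1 in R 4.3.3 fitted cross as the only term (lmFit, eBayes with a variance trend, two-sided, 3 residual degrees of freedom), with Benjamini-Hochberg adjustment over all tested probe sets and a threshold of 0.05. An exact permutation test of 2 against 3 arrays cannot give a p under 0.1 and was not used. The fit was tested on simulated data. All 42 member genes were matched by gene identifier to a RefSeq gene table of GRCm38.p6, and 0 symbols differed.

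Counts and medians describe the lists, without set tests. The members and lists were chosen with earlier results of these data known. Values were named in full for the 5 genes with the smallest p and the gene with the highest p in each complex, the gene furthest against the complex median, the isoform families, and genes whose probe sets disagree; promoters shown, and further members, were chosen after their values were seen. Alternatives were other normalizations, filters and variance models, weights per array, a block on the replicate number, other rules for the probe set of a gene, and each array left out.  Python 3.11.15, pandas 2.3.3 and matplotlib 3.10.9 prepared tables and plots.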

Additional observations from a re-analysis of the deposited data

How the results depend on the processing

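No member probe set passed an adjusted p below 0.05 under any normalization, filter, variance model, array weight, block or left-out array, nor one below 0.1 with the settings of the report. The 32 genes lower in DBAxFVB F1 became 18 after quantile normalization, and the 6 at an unadjusted limma p below 0.05 became 2 after quantile normalization and 2 without moderation; with 1 array left out the 6 ranged from 2 to 5 and the 32 from 28 to 34. The complex IV median of -0.37 became 0.14 after quantile and 0.018 after cyclic loess normalization. It ranged from -0.58 to 0.01 with 1 array left out, that of complex III from -0.41 to -0.072 and that of complex V from -0.72 to -0.17; the values nearest to 0 came without DBAxFVB F1 array 3 for complexes IV and V and without AKRxFVB F1 array 1 for complex III. No pairing by replicate number was assumed in the main fit. Deviations from the group means correlated at -0.26 for number 1 and 0.17 for number 2. The deviations of 2 AKRxFVB F1 arrays mirror each other, so these correlations cannot decide whether samples were paired. With the replicate number as a block, which leaves DBAxFVB F1 array 3 without a partner, the medians were -0.17, 0.01 and -0.17. In that fit 5 genes were lower at an unadjusted limma p below 0.05. The share of all genes at that p was counted for the main settings only. The share of all genes that were lower was counted for those settings and without DBAxFVB F1 array 3. Under the other settings the member counts have no background and cannot be read as a result about the members. Without Cox7a2l the complex IV median was -0.34.

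Single genes turned sign as follows; the cause was not tested. After quantile normalization the differences were 0.15 for Cox6a1, 0.32 for Uqcrh, 0.14 for Cox6c, 0.083 for Atp5b, 0.0042 for Cox7a2, 0.059 for Atp5mpl, 0.18 for Atp5h, 0.13 for Atp5l, 0.18 for Cox8a, 0.24 for Cox5b, 0.38 for Cox4i1, 0.088 for Cox7a2l, 0.046 for Atp5k and 0.15 for Atp5a1. After cyclic loess normalization they were 0.15 for Cox6a1, 0.24 for Uqcrh, 0.021 for Cox6c, 0.046 for Atp5h, 0.010 for Atp5l, 0.024 for Cox8a, 0.015 for Cox5b and 0.20 for Cox4i1. With the replicate block they were 0.039 for Cox6c, 0.0085 for Atp5h, 0.025 for Cox6b2, 0.070 for Cox4i1, 0.11 for Atp5k and -0.011 for Atp5d. With 1 array left out the ranges were -0.76 to 0.039 for Cox6c, -0.64 to 0.0085 for Atp5h, -0.90 to 0.025 for Cox6b2, -0.28 to 0.070 for Cox4i1, -0.59 to 0.11 for Atp5k, -0.061 to 0.24 for Atp5d, -0.57 to 0.0023 for Uqcr11, -0.33 to 0.11 for Uqcrc1, -0.063 to 0.27 for Uqcr10 and -0.17 to 0.24 for Cox4i2. The planned floor for linear values was not run, since the values are on a log scale.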
